A study of Homo sapiens with 52 samples.

Results

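The genes described here are 10 that cells use to answer stress: MDM2, GADD45A, GADD45B, GADD45G, BTG2, SESN1, PLK2, TP53INP1, RRM2B and ZMAT3. Most, though not all, of the 10 are genes that p53, the tumour suppressor transcription factor, is known to switch on in many cell types. They were taken by gene name, 10 of the 27043 genes in each of 52 expression tables, with no threshold on their values. All 10 were among the 16359 genes that passed a filter on low values, which asked for 1 TPM or more in no fewer than 2 samples. TPM is a transcript level scaled for the length of the transcript and the size of the library.

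In unstressed cells p53 is held low by MDM2, the ubiquitin ligase that sends p53 for degradation and is itself a p53 target, so that the pair forms a feedback loop. DNA damage and other stress release p53, which then raises genes for cell cycle arrest, repair, nucleotide supply and cell death. Several of these genes also answer signals that do not pass through p53. The GADD45 genes, small proteins that bind stress kinases and cell cycle and repair factors, are each driven by different cues.

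The cells were fusion-positive rhabdomyosarcoma (FP-RMS), a childhood tumour of the skeletal muscle lineage in which a fusion of PAX3 and FOXO1 acts as an oncogenic transcription factor. In a screen of 44 samples, 20 compounds were each given at a high and a low dose for 6 h, 1 sample a dose, beside 4 DMSO (solvent) samples, 2 at 0.2% and 2 at 0.1%. The doses were 10 and 1 µM, except for Cpd50, GSKJ4 and LAQ824 with 5 and 0.5 µM. The acetylation axis held 7 compounds: LAQ824 (labelled HDAC, histone deacetylases), WT161 (HDAC6), MC1568 (HDAC4/5), Merck60 (HDAC1/2), OJI-1 (HDAC8), Bromosporin (bromodomains) and SGC-CBP30 (the CREBBP/EP300 bromodomain). The methylation axis held 11: EZ-005 (EZH2), UNC1999 (EZH1), UNC0638 (KMT1C, also called G9a), PFI-2 (SETD7), SGC0946 (DOT1L), GSKLSD1, LSD-519 and LSD-690 (LSD1), Cpd50 (pan Jumonji), GSKJ4 (JMJD3/UTX) and UNC-1215 (L3MBTL3). PFI-3 (SMARCA4) and trametinib (MEK1/2) were counted in neither axis. A second experiment set N1302 (HDAC) at 1 µM against DMSO at 6 h, and a time course set entinostat (HDAC1/2/3) at 1 µM against DMSO at 1, 6 and 24 h, with 1 sample each. The screen samples are titled RH41 but carry the cell line label RH4, both FP-RMS lines, whereas the other samples are RH4 by title and label. The methods of the study speak of replicate experiments that were averaged and of replicate DMSO controls, without saying whether these were separate cultures. With 1 sample a dose, p-values for a compound measure how far changes at its 2 doses disagree, a spread shared over the screen. They do not measure spread between replicate cultures, and a change that depends on dose adds to that spread. Spread between the DMSO samples may be technical.

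Each sample held between 5737939 and 41415071 reads, as whole numbers recovered from TPM. Muscle lineage markers (MYOD1, MYOG, DES, TMEM8C and CHRNA1) were at 8.03 TPM or more in all 52 samples, while of 9 markers of other cell types 5 (PTPRC, CD3E, PECAM1, EPCAM and CDH1) stayed below 1 TPM. CD68 (macrophages) reached 1 TPM in 51 samples, with a highest level of 5.09, ALB (liver) in 7 (highest 2.99), LUM (fibroblasts) in 3 (highest 16.2) and VWF (endothelium) in 2 (highest 1.20), and their part in the results was not tested. The 28 samples of flow cell C5JW5ACXX, named in the files, included no DMSO sample, nor did the 4 of H0VWNAGXX. The 2 DMSO samples of each concentration, sequenced on different flow cells, differed by no more than flow cell and counting noise and were averaged, which leaves n = 2 for DMSO. In 3 libraries (Bromosporin, Merck60 and PFI-2 at 10 µM) between 62.9% and 72.5% of read numbers were even, against 47.9% to 53.9% in the other 49, so that read numbers there may overstate depth.

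Promoter sequences of 7 of the 10 genes, from RefSeq on build GRCh38.p14 and running from 250 bases before a transcription start to 50 after it, show where a textbook p53 element lies close to a start. The p53 response element (2 decamers, no spacer, a pattern that reads the same on both strands) was searched in 35114 promoter windows, of which 0.649% held a match with 2 or fewer mismatches and 5.20% one with 3 or fewer. Among these 7 members, the internal MDM2 start (chr12:68808767-68809066, plus strand) held 2 matches, the better with 2 mismatches, and a SESN1 start (chr6:109008939-109009238, minus strand) held 1 with 3 mismatches. The upstream MDM2 start (chr12:68807922-68808221, plus strand) and the GADD45B start (chr19:2475877-2476176, plus strand) held none. GADD45A, TP53INP1 and RRM2B were not among the 7, so whether they hold a match is not given here. GADD45B is shown because it had the largest mean rise and the MDM2 pair because 2 promoters of 1 gene differ in the element. SESN1 is shown as the other member of the 7 with a match. In the MDM2 and SESN1 lines capitals mark p53 matches with 3 or fewer mismatches, and in the GADD45B line they mark CCAAT and TATAAA, each searched on both strands and found in 34.6% and 11.5% of windows.
MDM2 internal start: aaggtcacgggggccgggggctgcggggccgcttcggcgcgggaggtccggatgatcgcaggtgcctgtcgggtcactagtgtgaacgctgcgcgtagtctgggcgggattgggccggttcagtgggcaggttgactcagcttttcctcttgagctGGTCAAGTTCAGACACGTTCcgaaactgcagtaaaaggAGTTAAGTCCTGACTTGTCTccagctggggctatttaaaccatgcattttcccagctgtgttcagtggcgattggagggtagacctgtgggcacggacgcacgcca
MDM2 upstream start: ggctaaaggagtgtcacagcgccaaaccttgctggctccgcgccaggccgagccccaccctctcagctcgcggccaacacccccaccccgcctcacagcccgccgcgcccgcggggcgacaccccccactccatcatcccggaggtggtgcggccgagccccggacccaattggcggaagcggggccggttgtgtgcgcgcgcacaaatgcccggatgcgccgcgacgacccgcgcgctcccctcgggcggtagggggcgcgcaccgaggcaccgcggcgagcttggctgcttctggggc
SESN1 start: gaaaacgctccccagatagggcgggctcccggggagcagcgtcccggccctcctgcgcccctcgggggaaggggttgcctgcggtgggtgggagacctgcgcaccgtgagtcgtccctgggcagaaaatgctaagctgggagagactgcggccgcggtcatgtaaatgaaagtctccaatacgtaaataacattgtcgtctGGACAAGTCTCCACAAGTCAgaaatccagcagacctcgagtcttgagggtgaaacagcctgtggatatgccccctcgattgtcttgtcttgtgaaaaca
GADD45B start: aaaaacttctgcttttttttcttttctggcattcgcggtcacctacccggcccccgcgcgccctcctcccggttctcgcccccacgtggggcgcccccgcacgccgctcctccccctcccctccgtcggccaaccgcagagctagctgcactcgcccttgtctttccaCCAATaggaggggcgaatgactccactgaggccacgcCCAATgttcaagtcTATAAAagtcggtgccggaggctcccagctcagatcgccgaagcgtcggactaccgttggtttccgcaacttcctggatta
The internal MDM2 window also held TGACTCA, the AP-1 site, which 4.95% of windows held. A match is a description of letters and not a measured binding site.

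In DMSO the 10 genes spanned a wide range of TPM levels. GADD45A stood highest at 184 ± 7.80 TPM (SD, n = 2 concentrations), followed by GADD45G at 90.3 ± 4.54. MDM2 at 63.1 ± 0.990 and PLK2 at 62.4 ± 3.86 could not be ordered, since their samples overlapped. BTG2 stood at 45.7 ± 1.91, SESN1 at 24.5 ± 0.633 and RRM2B at 21.1 ± 0.112. TP53INP1 at 14.4 ± 0.922, ZMAT3 at 9.09 ± 0.474 and GADD45B at 6.15 ± 0.198 were the lowest, and apart from MDM2 and PLK2 no neighbours in this order overlapped. Between 0.2% and 0.1% DMSO no member passed the test (limma), nor did any of the 16359 genes (0%; 1548 at an unadjusted p under 0.05). The spread in this test is that between samples of 1 concentration on different flow cells, not between replicate cultures. The variance of the contrast between concentrations was 3.55 times that of counting noise over 10378 genes.

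Each compound was compared with DMSO to ask which of these genes it moved. The mean change over both doses, in log2(TPM + 1) with high doses set against 0.2% DMSO and low doses against 0.1%, was tested with limma with Benjamini-Hochberg adjustment over all genes, with calls made below an adjusted p of 0.05. The scale understates changes of low genes such as GADD45B. Of 200 pairs of gene and compound, 21 were called higher and 4 lower, spread over 6 of the 20 compounds, all of which shared the same DMSO samples.

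**Figure D1:**
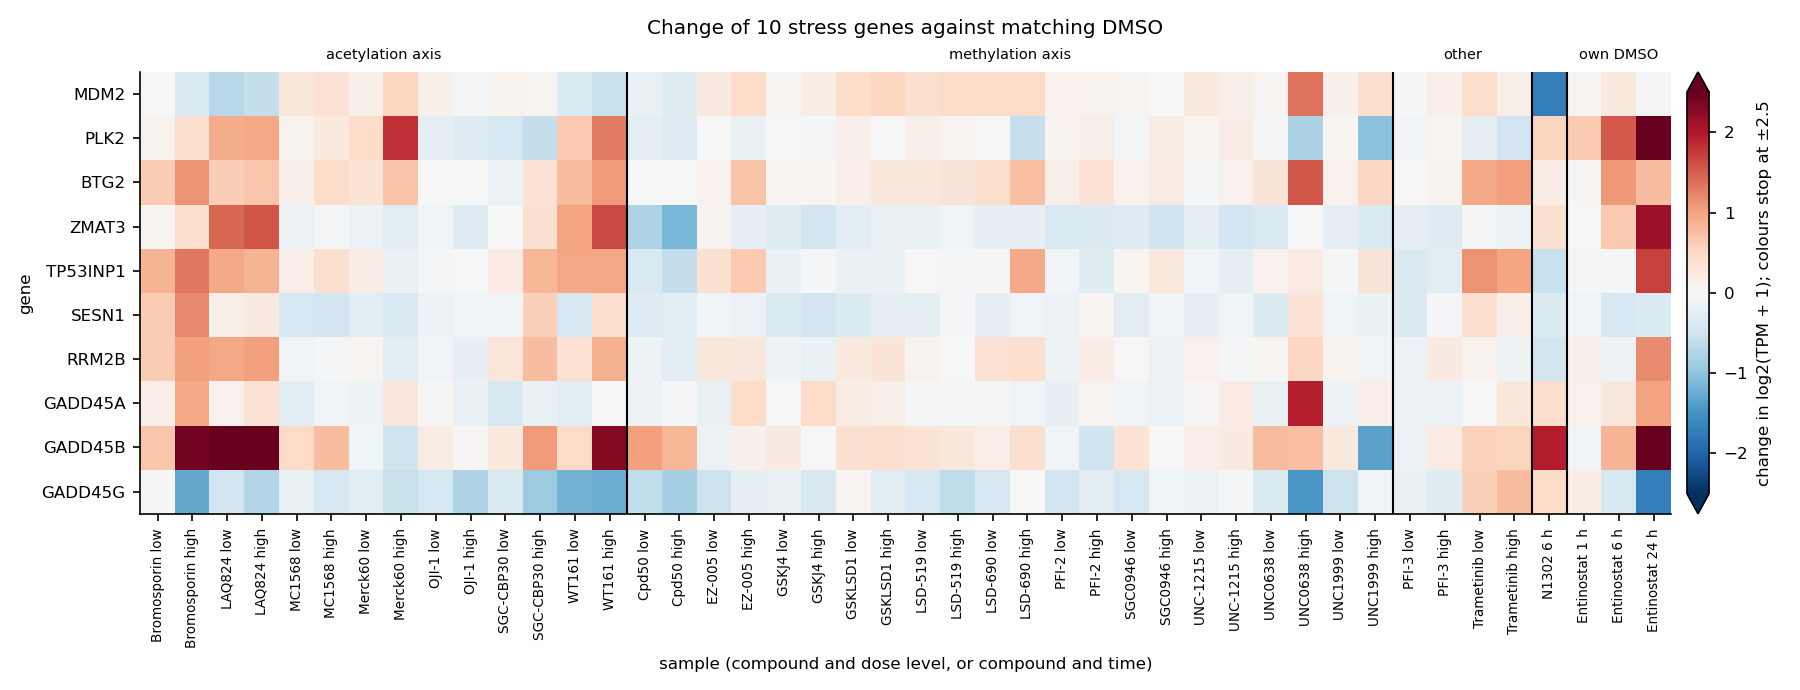
Change in log2(TPM + 1) of each gene (rows) in each treated sample (columns) against its matching DMSO, red higher and blue lower, with screen samples by dose level and N1302 and entinostat at the right against their own DMSO. GADD45B is dark red in the LAQ824 samples, the high doses of Bromosporin and WT161, and entinostat at 24 h, and the darkest blues are MDM2 under N1302 (-1.73) and GADD45G under entinostat at 24 h (-1.72).

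LAQ824, labelled for HDACs as a class, raised 6 of the 10 genes and lowered 1. Over all genes tested 28.9% were called higher and 25.2% lower, and the median change was 0.78 for the members and 0.06 for all genes. WT161 likewise raised 6 and lowered 1, with 18.4% of all genes higher and 15.0% lower, and medians of 0.78 and 0.03. Bromosporin raised 5 and lowered none, with 13.1% of all genes higher and 24.2% lower, and medians of 0.70 and -0.12. UNC0638 raised 2 and lowered 1 (2.87% and 11.1% of all genes), trametinib raised 2 (1.45% higher and 1.57% lower) and Cpd50 lowered 1 (2.74% lower). The other 14 compounds had no member past this test, the smallest adjusted p being 0.0991 for RRM2B under SGC-CBP30. Among them MC1568 had called 20.6% of all genes higher and 3.34% lower, and SGC-CBP30 0.996% higher and 3.17% lower. In either direction GSKLSD1 had called 3.91%, LSD-690 1.56%, LSD-519 0.672% and PFI-2 0.624% of all genes. The share was 0.208% for OJI-1 and for SGC0946, 0.141% for Merck60, 0.0917% for EZ-005, 0.0795% for UNC1999, 0.0428% for PFI-3 and for UNC-1215 and 0.0122% for GSKJ4. Against the DMSO samples of its own flow cell MC1568 did pass for 3 members: MDM2 was higher (0.31, adjusted p = 0.0247), and SESN1 (-0.46, adjusted p = 0.0235) and GADD45G (-0.30, adjusted p = 0.0289) were lower, where 33.6% of all genes were higher and 8.60% lower.

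MDM2, the ubiquitin ligase of p53 (hg19 chr12:69201952-69239324), moved in both directions. Its DMSO samples lay between 61.7 and 64.3 TPM, and its levels were 41.1 and 39.0 TPM under LAQ824 at 5 and 0.5 µM. Both LAQ824 samples lay below every DMSO sample, and the mean fell by 0.64 on the log2 scale (SE 0.22, adjusted p = 0.0189), a call that neither dose alone gave (adjusted p = 0.0839 at 5 µM and 0.0621 at 0.5 µM). WT161 left MDM2 at 42.1 and 50.3 TPM, also below every DMSO sample, a change of -0.45 that did not pass (adjusted p = 0.132) but that did against the other compounds of its own flow cell (-0.68, adjusted p = 0.0151, where 15.5% of all genes were lower). UNC0638 went the other way: MDM2 stood at 160.7 TPM at 10 µM and at 66.6 TPM at 1 µM, so that the high-dose sample alone stood apart, 2.57 times its DMSO (95% counting interval 2.46 to 2.69). Its mean rise of 0.71 (SE 0.22, adjusted p = 0.0386) was not called without the 10 µM sample (0.07, adjusted p = 0.941), within its flow cell (0.56, adjusted p = 0.0607), with only its own samples and DMSO in the fit (adjusted p = 0.238) or with no filter on low values (adjusted p = 0.0719). The 3 LSD1 compounds held MDM2 between 84.8 and 91.5 TPM in all 6 samples, above every DMSO sample, with mean changes of 0.50 under GSKLSD1, 0.47 under LSD-690 and 0.44 under LSD-519 that did not pass the test (adjusted p = 0.281, 0.429 and 0.798). All 6 LSD1 samples came from flow cells with no DMSO sample. Against the other compounds of flow cell C5JW5ACXX the changes were 0.31 for LSD-690 and 0.27 for LSD-519 (limma adjusted p = 0.681 and 0.723). GSKLSD1 had no within-flow-cell value. Over the screen 30 of 40 treated samples lay above all DMSO samples for MDM2 and 8 below. Above were 22 of 28 of C5JW5ACXX, 4 of 4 of H0VWNAGXX, 2 of 4 of H144EBGXX and 2 of 4 of C4JM1ACXX.

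GADD45B, the GADD45 gene that answers TGF-beta and inflammatory signals (hg19 chr19:2476123-2478257), had the largest rise of the 10. DMSO samples lay between 5.23 and 6.80 TPM. LAQ824 gave 39.6 TPM at 5 µM and 43.5 TPM at 0.5 µM, and the mean rose by 2.58 (SE 0.47, adjusted p = 7.39e-05). Both LAQ824 samples lay far above every DMSO sample. Bromosporin gave 37.8 TPM at 10 µM and 10.3 TPM at 1 µM, a mean rise of 1.56 (adjusted p = 0.0122), and WT161 gave 35.0 and 8.8 TPM, a mean rise of 1.39 (adjusted p = 0.0256). Under these the high-dose sample carried most of the rise, and without it neither was called (0.71, adjusted p = 0.433, and 0.49, adjusted p = 0.590), nor with only their own samples and DMSO in the fit (adjusted p = 0.0559 and 0.0710). WT161 also missed the threshold with no filter on low values (adjusted p = 0.0553). Cpd50 gave 12.01 and 13.2 TPM, above every DMSO sample, a change of 0.93 that did not pass (adjusted p = 0.315) but did against the DMSO samples of its own flow cell (1.02, adjusted p = 0.0480, where 4.31% of all genes were higher). The lowest level was 1.90 TPM, from 13 reads, under UNC1999 at 10 µM, 0.301 times its DMSO (95% counting interval 0.156 to 0.533).

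GADD45A (hg19 chr1:68150860-68154021), the classical DNA damage member of the family, was called under no compound. DMSO samples lay between 174 and 196 TPM, and UNC0638 at 10 µM gave 695 TPM, the highest of the 40 treated samples, against 169 TPM at 1 µM. The single high-dose sample was 3.87 times its DMSO (95% counting interval 3.68 to 4.08), whereas the mean over both doses, 0.89 (SE 0.32), missed the threshold with an adjusted p of 0.0604 and passed within its flow cell (0.89, adjusted p = 0.0392, where 3.31% of all genes were higher). Bromosporin at 10 µM gave 352 TPM, and its mean change of 0.57 did not pass (adjusted p = 0.165).

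GADD45G (hg19 chr9:92219927-92221469), a family member tied to growth arrest and differentiation, fell under WT161 and UNC0638 in the fit over the screen, and under WT161, LAQ824 and MC1568 within flow cell. DMSO samples lay between 83.9 and 97.1 TPM. WT161 gave 39.1 and 37.7 TPM at 10 and 1 µM, so that both doses lay at the same low level, and the mean fell by 1.21 (SE 0.29, adjusted p = 0.00265), or by 0.84 against the other compounds of its flow cell (adjusted p = 0.0202). LAQ824 gave 55.9 and 61.8 TPM, a change of -0.61 that did not pass over the screen (adjusted p = 0.0828) but did against the DMSO samples of its own flow cell (-0.61, adjusted p = 0.00233, where 31.6% of all genes were lower). UNC0638 gave 33.5 TPM at 10 µM and 67.8 at 1 µM, a mean change of -0.90 (adjusted p = 0.0418) that was lost within its flow cell (-0.51, adjusted p = 0.179), without the 10 µM sample (-0.41, adjusted p = 0.677), under median-ratio scaling (adjusted p = 0.0561), with no filter (adjusted p = 0.0818) and with only its own samples and DMSO (adjusted p = 0.156). For this gene 32 of the 40 treated samples lay below all DMSO samples, 22 of the 28 of flow cell C5JW5ACXX among them. All 4 treated samples of H144EBGXX and all 4 of C4JM1ACXX, the flow cells that held the DMSO samples, also lay below. The part of the flow cell in these levels was not tested beyond the within-flow-cell values. Trametinib was the only compound above all DMSO samples, at 163 and 132 TPM, a change of 0.69 (adjusted p = 0.273) that passed within its flow cell (1.21, adjusted p = 0.0142, where 2.54% of all genes were higher).

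**Figure D2:**
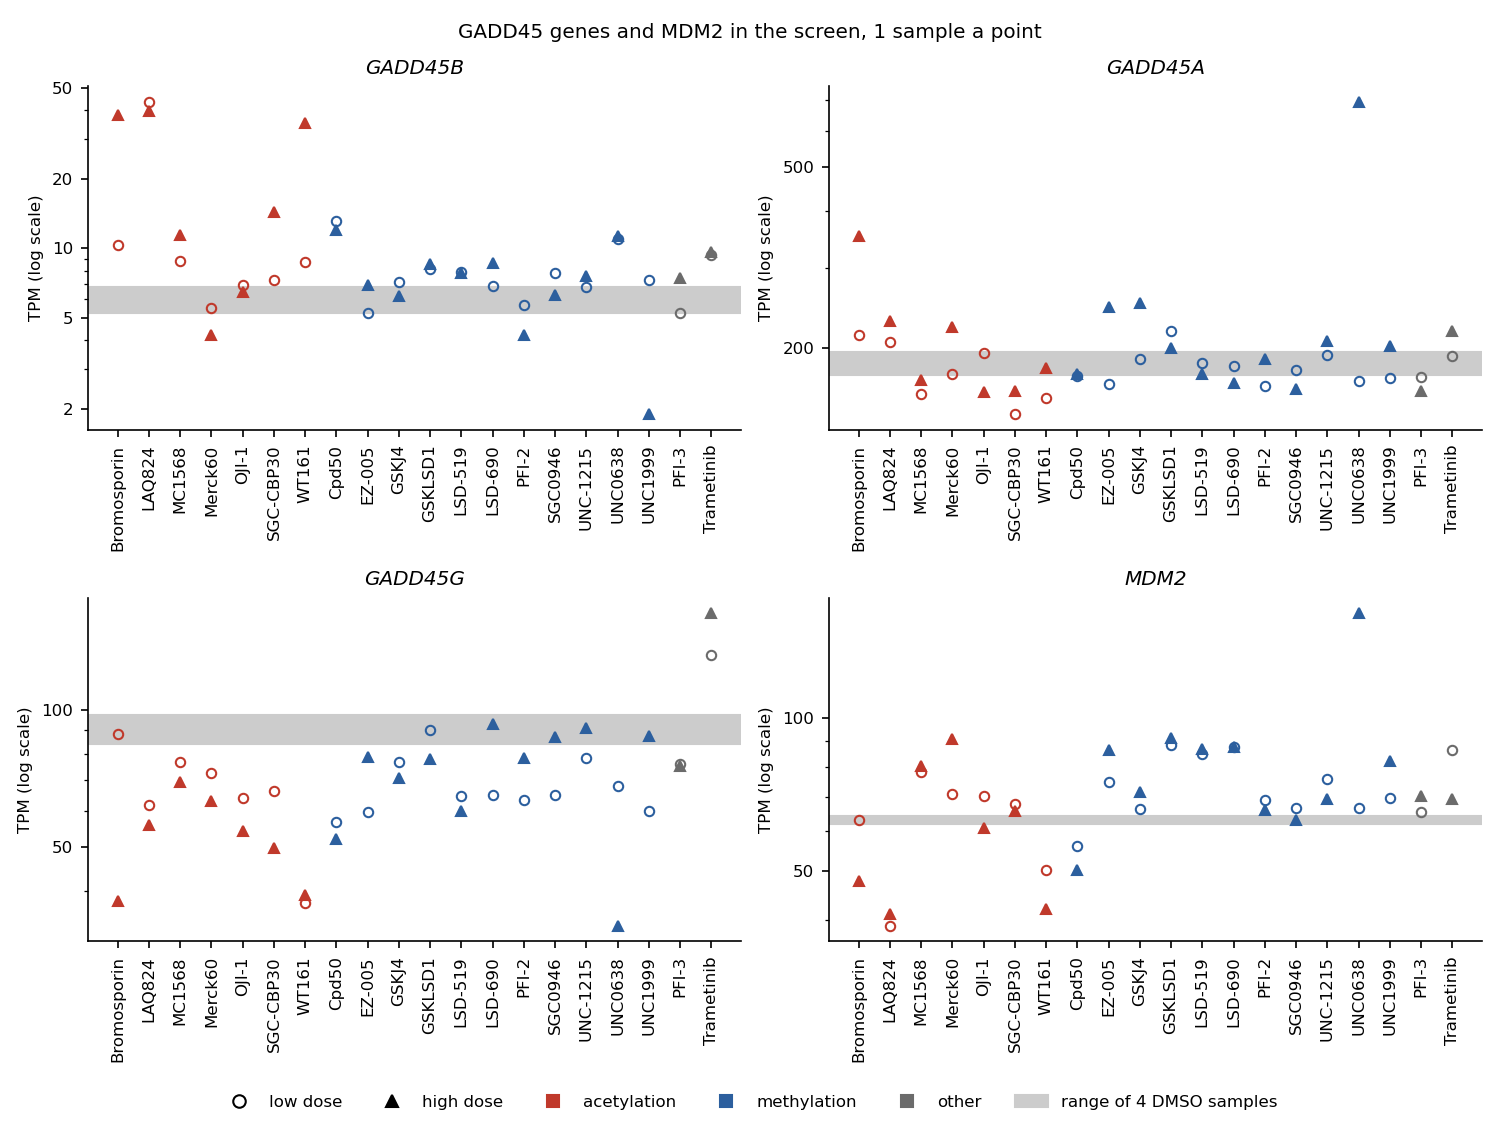
TPM (log scale) of the 3 GADD45 genes and MDM2 under each of the 20 screen compounds, 1 sample a point, open circles low dose and triangles high dose, coloured by axis, with the range of the 4 DMSO samples shaded. UNC0638 at 10 µM stands apart at 695 TPM for GADD45A and 160.7 for MDM2, and LAQ824 is high for GADD45B at both doses.

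Of the genes that restrain growth, BTG2 was called most often. BTG2 (hg19 chr1:203274664-203278729) is an antiproliferative factor that helps to remove poly-A tails from messages. Its DMSO samples lay between 42.7 and 47.4 TPM, and no treated sample lay below them while 33 of 40 lay above: 25 of the 28 of flow cell C5JW5ACXX, which had no DMSO sample, 4 of 4 of H144EBGXX, 3 of 4 of H0VWNAGXX and 1 of 4 of C4JM1ACXX. Levels at the high and low dose were 72.3 and 72.8 TPM under LAQ824, 94.1 and 82.3 under WT161, 98.3 and 73.2 under Bromosporin and 90.9 and 91.8 under trametinib, all 8 above every DMSO sample. UNC0638 gave 132.8 TPM at 10 µM and 58.9 at 1 µM. The mean rises were 0.66 for LAQ824 (adjusted p = 0.00858), 0.93 for WT161 (adjusted p = 0.00113), 0.88 for Bromosporin (adjusted p = 0.00177), 0.98 for trametinib (adjusted p = 0.00592) and 0.94 for UNC0638 (adjusted p = 0.00776), each with an SE of 0.20. All of these compounds but LAQ824 were on flow cell C5JW5ACXX, so a value against its other compounds has called ones in the reference. This lowers such a value. Against the other compounds of flow cell C5JW5ACXX the rises were smaller, 0.51 for WT161 (adjusted p = 0.0248, where 20.8% of all genes were higher), 0.45 for Bromosporin (adjusted p = 0.0378, 14.5% higher) and 0.51 for UNC0638 (adjusted p = 0.0415). The trametinib rise was 0.56 there and did not pass (adjusted p = 0.0719), nor did it pass without its 1 µM sample (adjusted p = 0.125). The LAQ824 rise did not pass without its 0.5 µM sample (adjusted p = 0.0814), and that of UNC0638 did not pass without its 10 µM sample (0.42, adjusted p = 0.305) or with only its own samples and DMSO (adjusted p = 0.168).

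PLK2 (hg19 chr5:57749810-57755966), a polo-like kinase of centriole duplication, rose under LAQ824 and WT161. DMSO samples lay between 59.5 and 66.4 TPM. LAQ824 gave 117 and 125 TPM and WT161 147 and 104 TPM at the high and low dose, mean rises of 0.95 (SE 0.32, adjusted p = 0.0155) and 0.97 (adjusted p = 0.0221). Neither dose of LAQ824 alone was called (adjusted p = 0.0587 and 0.0690), nor was WT161 without its high dose (0.64, adjusted p = 0.307). The highest level in the screen was 213 TPM under Merck60 at 10 µM, 3.56 times its DMSO (95% counting interval 3.39 to 3.74), against 89.4 TPM at 1 µM, and its mean change of 1.13 did not pass (adjusted p = 0.268). This library was 1 of the 3 with an excess of even read numbers. UNC1999 at 10 µM gave the lowest level, 28.7 TPM.

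ZMAT3, an RNA-binding p53 target, and TP53INP1, a regulator of autophagy and cell death, were each called under several compounds. ZMAT3 (hg19 chr3:178735011-178789656) lay between 8.45 and 9.49 TPM in DMSO, at 29.98 and 25.2 TPM under LAQ824 and at 31.6 and 18.2 TPM under WT161. These 4 samples lay above every DMSO sample, with mean rises of 1.499 (SE 0.19, adjusted p = 1.07e-06) and 1.31 (adjusted p = 2.51e-05). Cpd50 lowered it to 3.71 and 4.72 TPM, a fall of 0.96 on the log2 scale (adjusted p = 0.00226) that was not called without the high dose (adjusted p = 0.108). Bromosporin left ZMAT3 at 12.9 and 9.2 TPM without a call. TP53INP1 (hg19 chr8:95938200-95961615) lay between 13.3 and 15.8 TPM in DMSO. Its levels at the high and low dose were 39.3 and 25.7 TPM under Bromosporin, 27.97 and 27.3 under LAQ824, 30.4 and 27.6 under WT161 and 31.0 and 31.0 under trametinib, all 8 above every DMSO sample. The mean rises were 1.09 for Bromosporin (adjusted p = 0.000469), 0.90 for LAQ824 (adjusted p = 0.00111), 0.96 for WT161 (adjusted p = 0.00133) and 1.06 for trametinib (adjusted p = 0.00502), each with an SE of 0.21, and that of trametinib did not pass without its 1 µM sample (adjusted p = 0.123). LSD-690 at 10 µM gave 29.9 TPM, in the same range, against 14.2 TPM at 1 µM, and was not called.

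RRM2B and SESN1 supply the repair and redox side of the response. RRM2B (hg19 chr8:103216729-103251346), a subunit of the p53-inducible ribonucleotide reductase, lay between 19.9 and 22.2 TPM in DMSO. It reached 44.1 and 42.3 TPM under LAQ824, 44.04 and 33.3 under Bromosporin and 40.4 and 27.3 under WT161, all 6 above every DMSO sample. The mean rises were 1.00 (SE 0.18, adjusted p = 7.75e-05), 0.83 (adjusted p = 0.00131) and 0.63 (adjusted p = 0.0104). SESN1 (hg19 chr6:109307640-109415708), a sestrin that limits mTORC1 when amino acids or redox balance fail, was raised by Bromosporin only among the 20 compounds. It lay between 24.1 and 25.1 TPM in DMSO and at 56.7 and 39.4 TPM under Bromosporin, a mean rise of 0.92 (SE 0.21, adjusted p = 0.00136). LAQ824 gave 28.4 and 27.9 TPM (adjusted p = 0.448) and WT161 32.7 and 18.4 TPM, with a mean change of 0. The Bromosporin calls of RRM2B, SESN1 and BTG2 did not pass without the 10 µM sample (adjusted p = 0.0591, 0.0679 and 0.0597), nor did that of RRM2B under WT161 (0.38, adjusted p = 0.255).

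**Figure D3:**
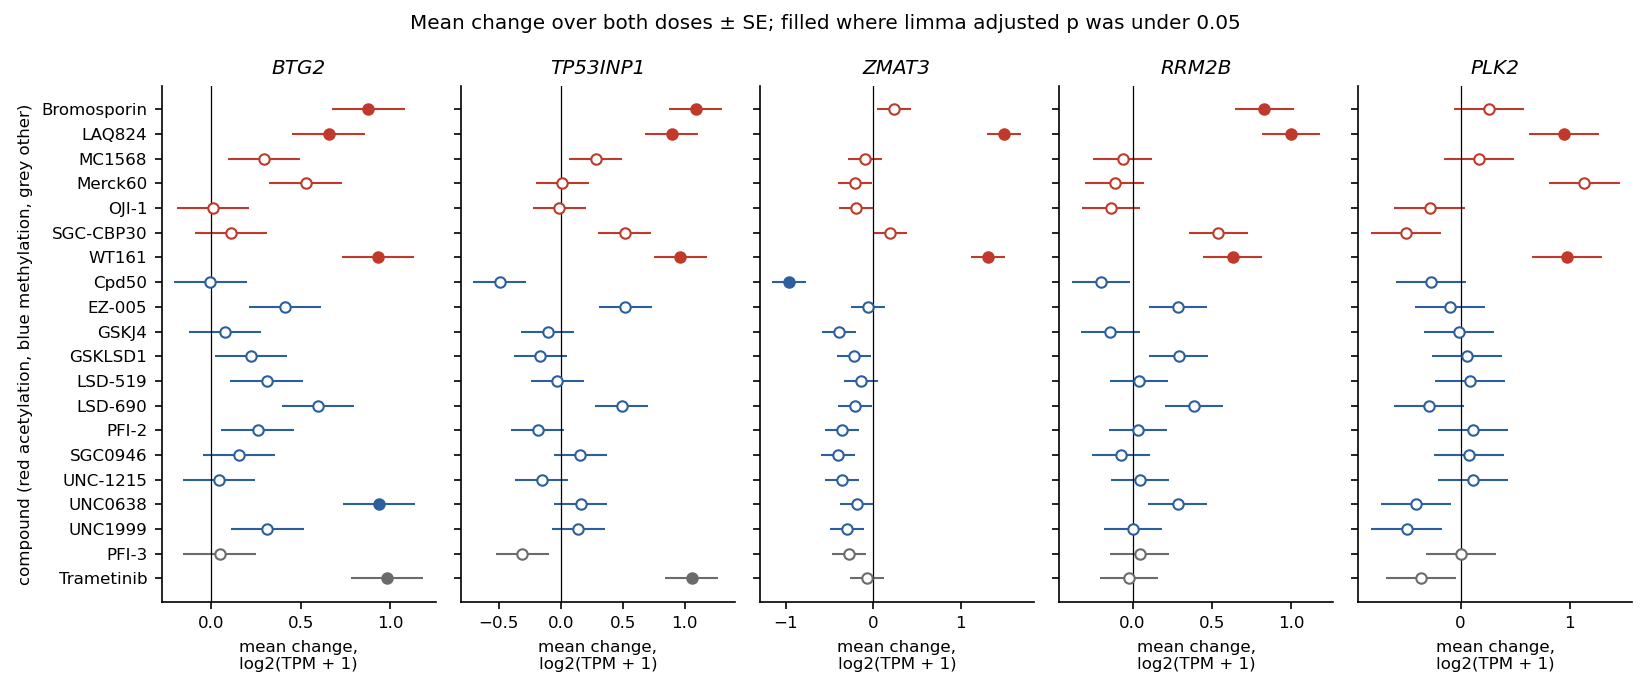
Mean change over both doses in log2(TPM + 1) with its SE for 5 genes (panels) under each of 20 compounds (rows), filled where limma's adjusted p was under 0.05, red for the acetylation axis, blue for the methylation axis and grey for the others. BTG2 is filled in 5 rows, TP53INP1 in 4, RRM2B and ZMAT3 in 3 each and PLK2 in 2.

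The axes were compared with compounds as units, 7 against 11, to ask whether these genes separated them. No member passed limma's test and none of the 16359 genes did (0%), while 5012 genes had an unadjusted p under 0.05. The member nearest the threshold was ZMAT3, with a mean change of 0.39 ± 0.72 (SD, n = 7) under acetylation compounds and -0.33 ± 0.24 (SD, n = 11) under methylation compounds, a difference of 0.72 (SE 0.21, adjusted p = 0.0603). TP53INP1 followed with 0.53 ± 0.46 against 0.03 ± 0.30 (difference 0.50, SE 0.17, adjusted p = 0.0763). GADD45B had the widest spread among the acetylation compounds, 0.95 ± 0.97 against 0.21 ± 0.42, and its difference of 0.74 did not pass (adjusted p = 0.118). MDM2 had a mean of -0.07 ± 0.38 under acetylation and 0.27 ± 0.26 under methylation compounds (difference -0.34, adjusted p = 0.130). With the high dose alone ZMAT3 passed (0.84, adjusted p = 0.0461), where 9.78% of all genes did. Without MC1568, Merck60 or OJI-1 15.3%, 16.1% and 18.3% of all genes passed, and 2, 3 and 3 members did: ZMAT3 (adjusted p = 0.0301, 0.0245 and 0.0219) and TP53INP1 (adjusted p = 0.0492, 0.0325 and 0.0272) each time, GADD45B without Merck60 (adjusted p = 0.0399) and PLK2 without OJI-1 (adjusted p = 0.0417). Leaving out any other single compound, LAQ824, WT161 and Bromosporin among them, gave 0 genes past the test. The low dose alone and flow cell as a covariate also gave 0 genes. Within the compounds of flow cell C5JW5ACXX the ZMAT3 difference was 0.51 (adjusted p = 0.274), and 0 genes passed.

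**Figure D4:**
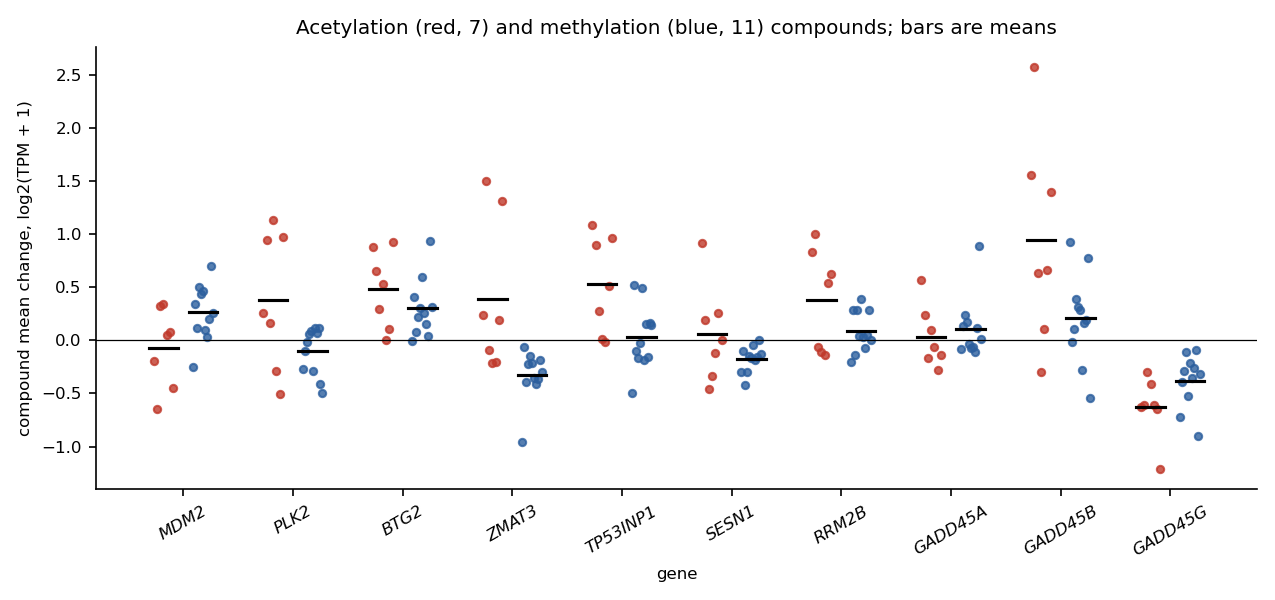
Mean change over both doses in log2(TPM + 1) of each gene under each of 7 acetylation (red) and 11 methylation (blue) compounds, 1 compound a point, with black bars at the means. The ZMAT3 points at 1.499 and 1.31 are LAQ824 and WT161, and the blue ZMAT3 point at -0.96 is Cpd50.

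N1302 was set against its own DMSO, with 1 sample a group and no test, and MDM2 was lower and GADD45B higher past 2-fold. MDM2 stood at 71.7 TPM in DMSO and 20.9 TPM under N1302, 0.291 times (95% counting interval 0.272 to 0.310), a difference of -1.73 on the log2 scale. GADD45B stood at 79.4 against 19.6 TPM, 4.05 times (3.52 to 4.67), a difference of 1.96. The remaining 8 members stayed within 2-fold. With 1 member past 2-fold in each direction, the members stood beside 11.6% of all genes higher and 19.3% lower past 2-fold. Median-ratio scaling moved this library by -0.37 on the log2 scale, and under it the differences were -1.42 for MDM2 and 2.29 for GADD45B. Over all genes that scaling turned 1903 higher and 3158 lower into 2780 and 2203. The reference mattered too. With the 6 h DMSO sample of the time course averaged in, the differences were -1.57 for MDM2 and 2.51 for GADD45B. ZMAT3 then went from 0.38 to 1.04, past 2-fold, and GADD45G from 0.47 to -0.31. The counting intervals do not cover such differences between DMSO samples.

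Under entinostat more of the 10 genes stood past 2-fold at later times, again with 1 sample a time and no test. At 1 h none was past 2-fold (0.660% of all genes higher, 0.581% lower), and PLK2, at 78.8 against 50.04 TPM, was 1.58 times its DMSO (95% counting interval 1.48 to 1.68). At 6 h PLK2 stood at 169 against 57.4 TPM and BTG2 at 113 against 52.6 TPM, differences of 1.54 and 1.09, and 5.13% of all genes were higher and 0.947% lower past 2-fold. At 24 h 6 members were higher and 1 lower, where 16.4% of all genes were higher and 6.06% lower, and the median difference was 1.09 for the members and 0.10 for all genes. GADD45B reached 112 against 7.81 TPM, 14.3 times (12.05 to 17.1), and PLK2 354 against 53.6 TPM, 6.61 times (6.30 to 6.93). ZMAT3 stood at 28.8 TPM against 5.73, TP53INP1 at 26.8 against 7.49, RRM2B at 45.2 against 19.5 and GADD45A at 329 against 163, differences of 2.15, 1.71, 1.17 and 1.01. GADD45G was the lower one, at 16.6 against 57.1 TPM, 0.292 times (0.249 to 0.340). MDM2 stood at 60.5 against 62.2 TPM at 24 h, 0.973 times (0.937 to 1.01), the smallest difference of the 10, and BTG2 and SESN1 also stayed within 2-fold. Counting intervals cover counting error only.

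**Figure D5:**
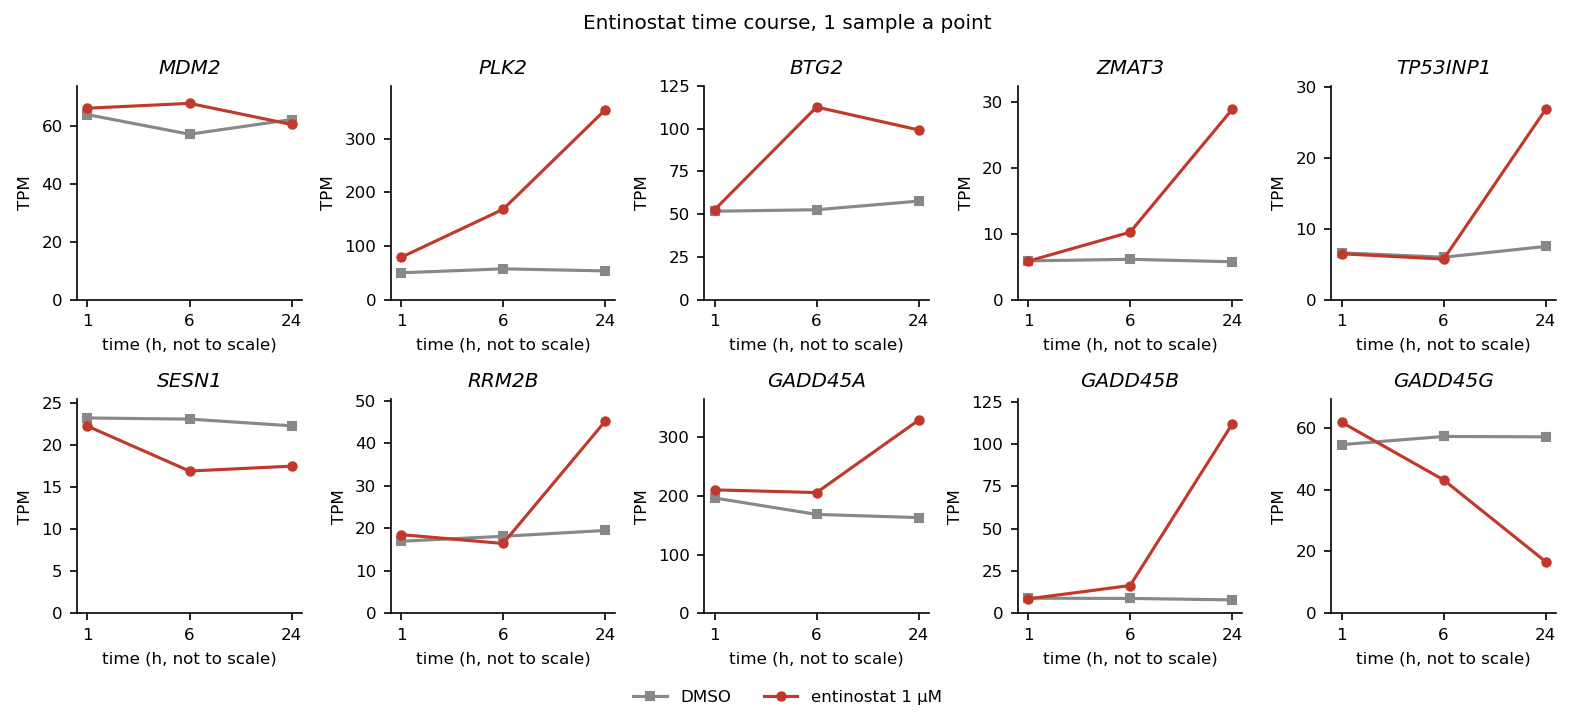
TPM of the 10 genes in the time course at 1, 6 and 24 h (time axis not to scale), grey squares DMSO and red circles entinostat at 1 µM, 1 sample a point. PLK2 is above DMSO at all 3 times, GADD45B, ZMAT3, TP53INP1, RRM2B and GADD45A are highest at 24 h, and MDM2 stays beside DMSO.

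Other genes of the p53 pathway were taken from a list of 28 textbook targets and regulators, of which 26 passed the filter. Of these, 11 rose and 5 fell under Bromosporin, 10 and 6 under LAQ824, 6 and 2 under WT161, 6 and 1 under MC1568 and 3 and 2 under UNC0638, set beside the shares of all genes given above. Single genes rose under Cpd50 (BTG1), SGC-CBP30 (CCNG1) and trametinib (CDKN1A), and no list gene passed under the other 12 compounds. The share of all genes called higher was 3.67% under Cpd50. CDKN1A, the p21 inhibitor of cyclin-dependent kinases, was called under 5 of the 20 compounds, more than any other list gene. It lay between 24.9 and 29.2 TPM in DMSO and at 191 and 64.0 TPM under Bromosporin at the high and low dose, and it rose by 2.01 under Bromosporin, 1.81 under LAQ824, 1.64 under trametinib, 1.61 under WT161 and 1.45 under UNC0638. UNC0638 gave 164 TPM at 10 µM and 33.3 TPM at 1 µM, and without the 10 µM sample its rise was 0.47 (adjusted p = 0.709). The CDKN1A rises under UNC0638 and trametinib also did not pass within flow cell (0.84, adjusted p = 0.102, and 1.05, adjusted p = 0.125). The reference for these values was the other compounds of C5JW5ACXX, Bromosporin and WT161 among them, which lowers them. Without the high dose those under Bromosporin and WT161 did not pass (adjusted p = 0.0693 and 0.0636), and neither dose of trametinib alone did (adjusted p = 0.108 and 0.311). BTG1, a relative of BTG2, rose under 4 compounds by a mean of 0.87, and the rise under UNC0638 did not pass without its 10 µM sample (adjusted p = 0.432), nor that under Cpd50 with either dose alone (adjusted p = 0.0958 and 0.175). PHLDA3, a p53 target that opposes AKT, fell under 4: by 1.18 under LAQ824, by 0.75 under Bromosporin, by 0.65 under UNC0638 and by 0.54 under WT161. Within flow cell the PHLDA3 fall passed under LAQ824 (-1.22, adjusted p = 0.000762) and not under Bromosporin, UNC0638 or WT161 (adjusted p = 0.0551, 0.209 and 0.453). Those 3 compounds stand in each other's reference there, which makes their falls smaller. Without the high dose PHLDA3 changed by -0.73 under Bromosporin, -0.44 under UNC0638 and -0.22 under WT161. Without the low dose the changes were -0.77, -0.86 and -0.85. In the fit over the screen the list thus held targets that rose and targets that fell under the same compounds.

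Patterns over the screen were compared by Pearson correlation of log2(TPM + 1) over the 42 columns, as a description, with 11096 candidate genes at a mean of 5 TPM or more, and the columns share DMSO and flow cells. The gene most like MDM2 was ELK4 (r = 0.91), and CDKN1A was most like BTG2 (r = 0.86). The closest to the others were JUNB for GADD45A (0.83), CRISPLD2 for GADD45B (0.90), UBL7-AS1 for GADD45G (0.74), TP53INP2 for SESN1 (0.86), ADAMTS15 for PLK2 (0.79), ARL15 for TP53INP1 (0.89), ZNF28 for RRM2B (0.92) and TAOK3 for ZMAT3 (0.96). Among the members themselves RRM2B and ZMAT3 were most alike (r = 0.79), and MDM2 and GADD45B least (r = -0.56).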

How the data were processed

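RNA was extracted from FP-RMS cells, poly-A selected and sequenced. The authors used STAR for alignment to hg19 and RSEM with the UCSC reference for quantification, and the deposited values are TPM, 1 column a sample, normalised by the authors for length and library size. The submitters' processing notes also list edgeR, without a role. Expression was analysed as log2(TPM + 1) for genes that reached 1 TPM in no fewer than 2 samples. In the screen, 42 columns (20 compounds and DMSO, high and low, the 2 DMSO samples of a concentration averaged) entered 1 limma fit (version 3.58.1, R 4.3.3, mean-variance trend) with dose level as a term, two-sided, adjusted by Benjamini-Hochberg over 16359 genes. Each adjusted p printed is from limma. Flow cells come from the file names. Within flow cell, compounds of H144EBGXX and C4JM1ACXX were set against the DMSO samples there. Those of C5JW5ACXX were set against the mean of its other compounds, called ones included, so these values do not measure a change from DMSO. In simulated data for MC1568 against DMSO over 16359 genes, 64 of 100 genes changed by 1 and 97 of 100 changed by 2 on the log2 scale were called, with 9 false calls. The simulated noise was independent and normal, with no flow cell effect. Changes were equal at both doses, and no other compound changed any gene. The real data differ in these points, so the counts need not carry over to them. Read numbers were worked out from TPM values, which were whole steps for 100% of 23645 genes above 0, and gave exact counting intervals (95%) for ratios of single samples. Python 3.11.15, numpy, pandas and scipy did the rest. The members and the gene lists were chosen with earlier results of these data known. The text names the 10 members, the 3 list genes called under most compounds (ties by larger mean size) and, for each member, the gene with the highest correlation. Other list genes are named only where a count of 5 or fewer holds them, after their values were seen. Alternatives used another pseudocount, scaling, filter, reference or fit, each replicate or dose left out, or limma-voom on the read numbers.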

Additional observations from a re-analysis of the deposited data

Results flagged for a closer look

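GADD45G under WT161 stood apart from the other acetylation compounds. Its mean change of -1.21 lay below the other 6, and the gap to its nearest neighbour was 0.622 of the whole range of the 7, above the 95% critical value of 0.568 of Dixon's test. All 10 genes were checked in this way in the 7 acetylation compounds, and chance passes about 1 in 20 such groups. With each change taken within flow cell, the WT161 value was -0.84 and its gap 0.270 of the range, below the critical value. There LAQ824 and MC1568 were set against DMSO, and the other acetylation compounds against the remaining compounds of flow cell C5JW5ACXX. With unlike references this gap cannot decide whether WT161 stood apart. Among the acetylation compounds of C5JW5ACXX its nearest neighbour was SGC-CBP30 at -0.23. Both WT161 samples were low, at 39.1 and 37.7 TPM.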

How the results depend on the processing

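Of the 25 called pairs of gene and compound, 9 passed under all 15 alternatives applied to each, 19 passed under every one that kept both doses, and 0 changed sign. The count called higher, 21, became 44 when each compound was fitted alone with DMSO. The count called lower, 4, became 21 there, 7 with all 44 samples separate and 7 within flow cell. It became 8 with voom on read numbers, an alternative chosen after seeing the data. Calls over all 16359 genes moved as well. Fitted alone, trametinib went from 237 higher and 257 lower to 2535 and 2254, and UNC0638 from 469 and 1817 to 1 and 1. For WT161 2447 lower became 3074 with all 44 samples, 2528 within flow cell and 3135 with voom. For Merck60 19 lower became 66, 0 and 64. Whether the members moved more than other genes was not tested. Leaving out 1 dose gave 11 to 20 higher and 1 to 4 lower. Without Bromosporin, Merck60 and PFI-2, also chosen after seeing the data, 16 were higher and 4 lower. The axis comparison, 0 members, gave 1 with the high dose alone and 0 to 3 without 1 compound. The GADD45A axis difference of -0.07 became 0.0046 without UNC0638 (adjusted p = 0.98), the highest value without 1 compound, the lowest being -0.16 without Bromosporin. The cause of these shifts was not tested. The DMSO replicate number goes with the flow cell (replicate 1 on C4JM1ACXX, replicate 2 on H144EBGXX), a contrast whose variance was 4.08 times that of counting noise. Deviations of same-numbered samples from the mean of their concentration correlated at r = 0.07. With 2 samples a concentration both pairs give the same value, so this is 1 correlation. With the replicate block, and so the flow cell, in the fit 0 members and 0 genes were called between the DMSO concentrations (1768 at an unadjusted p under 0.05, against 1548). Members past 2-fold under N1302 went from 2 to 3 with both DMSO samples titled RH4 at 6 h. Single doses and 2 DMSO columns limit what could be called.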
